A study of Mus musculus with 3 samples.

Results

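The 9 genes described here are 5 genes of the CCN family of secreted matricellular proteins (Cyr61, Ctgf, Nov, Wisp1 and Wisp2), 2 target genes of the co-activator YAP (Ankrd1 and Amotl2), the gene of YAP itself (Yap1) and that of its DNA-binding partner Tead1. They were found by their array gene names among 41174 non-control probes for 19713 named genes, and each had 1 probe under that name. The array uses the older CCN symbols: Cyr61 is now Ccn1, Ctgf is Ccn2, Nov is Ccn3, Wisp1 is Ccn4 and Wisp2 is Ccn5. Of the 9, 8 exceeded background clearly in both channels of each of the 3 arrays and were tested, and the probe named Tead1 did not. Gene expression was compared between cultured aortic endothelial cells of FVB/N mice lacking the serine/threonine kinase Pim1 and of wild-type FVB/N mice, both labelled female and 12 weeks old. Cells were grown on gelatine in medium with 10% serum, and RNA was prepared 24 hours after seeding. Each of 3 arrays carried knockout RNA in Cy5 and wild-type RNA in Cy3, with no dye swap. Every ratio is a log2 ratio of knockout over wild type, errors written ± are SDs over 3 arrays, and a gene was called at a Benjamini-Hochberg adjusted p under 0.05 in limma.

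CCN proteins are secreted into the matrix, where they bind integrins, heparan sulphate proteoglycans and growth factors. YAP and its relative TAZ (gene Wwtr1) move into the nucleus when the Hippo kinases MST and LATS are inactive, when cells spread on a stiff matrix, or when actin stress fibres form. They do not bind DNA themselves and act through TEAD factors. Cyr61, Ctgf, Ankrd1 and Amotl2 are commonly used readouts of this pathway, and Cyr61 and Ctgf are also known to respond to serum, to shear and to TGF-beta. Nov, Wisp1 and Wisp2 are not usual YAP readouts. Wisp1 was named for its response to WNT1, and Wisp2 lacks the C-terminal domain that the other CCN proteins have.

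RefSeq promoter sequences (build GRCm38.p6, from the C57BL/6J strain) were at hand for 4 of the 9 genes: Cyr61, Ankrd1, Amotl2 and Yap1. They are shown because TEAD factors bind the letters GGAATG, or CATTCC on the other strand, which are printed in capitals in the 250 bases before the listed transcription start, 5′ to 3′ on the strand of the gene.
Cyr61, chr3:145649986-145650235, minus strand: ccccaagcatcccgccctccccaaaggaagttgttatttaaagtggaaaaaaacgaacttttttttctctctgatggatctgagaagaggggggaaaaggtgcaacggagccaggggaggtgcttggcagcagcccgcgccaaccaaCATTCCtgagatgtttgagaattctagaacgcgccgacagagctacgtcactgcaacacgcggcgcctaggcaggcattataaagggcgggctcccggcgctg
Ankrd1, chr19:36119845-36120094, minus strand: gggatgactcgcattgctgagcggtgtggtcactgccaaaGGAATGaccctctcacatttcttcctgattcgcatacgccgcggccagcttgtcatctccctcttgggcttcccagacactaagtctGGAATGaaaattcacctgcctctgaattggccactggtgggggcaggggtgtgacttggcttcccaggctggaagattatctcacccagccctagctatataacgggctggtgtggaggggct
Amotl2, chr9:102717554-102717803, plus strand: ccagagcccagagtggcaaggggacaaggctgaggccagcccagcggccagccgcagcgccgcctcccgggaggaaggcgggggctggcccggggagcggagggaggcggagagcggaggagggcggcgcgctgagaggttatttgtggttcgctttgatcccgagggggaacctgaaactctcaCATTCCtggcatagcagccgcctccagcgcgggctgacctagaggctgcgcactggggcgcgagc
Yap1, chr9:8004597-8004846, minus strand: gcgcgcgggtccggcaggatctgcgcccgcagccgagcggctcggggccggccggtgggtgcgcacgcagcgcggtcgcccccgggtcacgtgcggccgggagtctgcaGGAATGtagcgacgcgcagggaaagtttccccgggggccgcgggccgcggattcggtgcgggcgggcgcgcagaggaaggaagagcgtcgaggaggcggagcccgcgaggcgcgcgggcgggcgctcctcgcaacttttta
Each of the 4 windows held these letters, against 12.6% of 27025 genes' first listed windows of the same length. Ankrd1 held them at 2 places, as 1.02% of windows did. The first base of the match lay 103 bases before the start for Cyr61, 210 and 123 for Ankrd1, 65 for Amotl2 and 141 for Yap1. None of the 4 windows held a CArG box, the element bound by serum response factor, which 1.40% of windows held. A match describes the letters and not binding.

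The targeted gene and the libraries were examined first. Pim1 read −0.97, −1.16 and −0.99 on the 3 arrays and fell (mean −1.04 ± 0.10, limma adjusted p = 0.00297). The arrays, which shared 1 slide and 1 scan day, were not alike. Pearson's r of the log2 ratios across tested probes was 0.905 for arrays 2 and 3, but 0.681 and 0.699 when array 1 was set against either of them. Xist was detected above background in wild-type RNA on 3 arrays and in knockout RNA on 0, and the Y-linked genes Ddx3y, Eif2s3y and Kdm5d the reverse, so sex and genotype cannot be told apart. The endothelial label was borne by few markers. Out of 15 endothelial markers, only 3 (knockout) and 4 (wild type) were detected above background on each array, and Pecam1, Cdh5, Tie1 and Erg were detected on none. Of the 5 tested, limma called 2 higher and 0 lower in the knockout. The list's summed log2 ratios were 1.47, 1.49 and 1.23 on the 3 arrays. In cultures, fewer cells of a type and less RNA per cell cannot be told apart. The labels do not say whether the 3 arrays came from separate animals or wild-type pools, so the p-values cover the spread among these arrays and no more.

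Of the 8 members tested, 2 were called higher in the knockout (Wisp1 and Yap1), 1 was called lower (Ankrd1) and 5 did not pass. Over all 13463 genes tested, 20.1% were called, 8.68% higher and 11.4% lower. Without replicate 1, 2 members were called higher and 5 lower, where 42.3% of all genes tested were called (21.2% higher and 21.1% lower). Without replicate 2 limma called 0 members in either direction (2 higher and 2 lower at an unadjusted p under 0.05), against 5.43% of all genes, 1.71% higher and 3.72% lower. Without replicate 3 it also called 0 (1 higher and 1 lower unadjusted), against 4.64% of all genes, 1.31% higher and 3.32% lower. These shares are of calls by adjusted p, so the unadjusted counts cannot be set against them. Probes share information on their spread in limma, worth 26.8 prior degrees of freedom without replicate 1 and 3.62 and 3.29 without replicates 2 and 3, so the very small p-values from arrays 2 and 3 rest largely on the spread of all probes. The members fell into 3 patterns. Cyr61, Ctgf, Wisp2, Ankrd1 and Amotl2 lay between −0.37 and 0.02 on array 1 and from 0.95 to 2.45 below 0 on arrays 2 and 3. Wisp1 and Yap1 were above 0 on every array, and Nov read between −0.02 and 0.06 on every array.

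**Figure D1:**
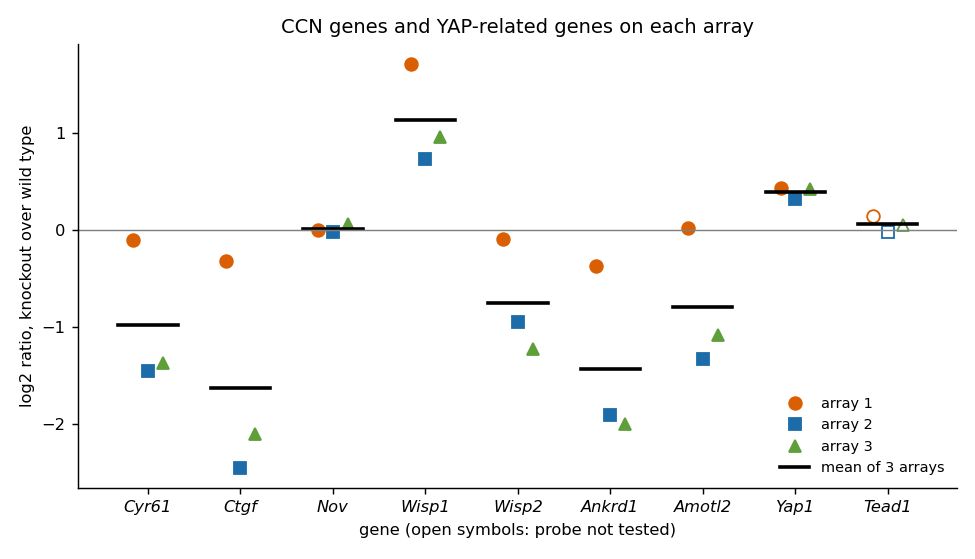
Log2 ratio of knockout over wild type for the 9 genes on each of 3 arrays (symbols), with the mean as a bar; open symbols mark the Tead1 probe, which was above background in 1 wild-type channel alone and was not tested. Array 1 lies above arrays 2 and 3 for Cyr61, Ctgf, Wisp2, Ankrd1 and Amotl2, whereas the 3 arrays lie close together for Nov and Yap1.

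Among the CCN genes, Ctgf had the ratio farthest below 0. Ctgf encodes connective tissue growth factor, a matrix-associated protein that promotes collagen production, and its probe lies at 24287891 to 24287950 on chromosome 10 (array coordinates, mm8). It read −0.32, −2.45 and −2.11 on arrays 1, 2 and 3. All 3 arrays read below 0, and array 1 stood far from the other two. The mean was −1.63 ± 1.15 (3.09-fold lower, 95% interval −2.66 to −0.60), and it narrowly missed the threshold (limma adjusted p = 0.0514). Without replicate 1 it was 4.86-fold lower (−2.28, adjusted p = 1.82e-15), and without replicate 2 or 3 its adjusted p was 0.223 or 0.248. Other ways of computing the ratio moved it across the threshold, as given in the closing section.

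Cyr61, a secreted integrin ligand that promotes endothelial migration and angiogenesis, was measured at 145584609 to 145584668 on chromosome 3. It read −0.10, −1.45 and −1.37. Arrays 2 and 3 differed by less than 0.10 and array 1 was near 0. The mean, −0.98 ± 0.76 (95% interval −1.68 to −0.28), missed the threshold (adjusted p = 0.0708). With replicate 1 left out, Cyr61 was 2.66-fold lower (−1.41, adjusted p = 3.91e-11), and without replicate 2 or 3 its adjusted p was 0.299 or 0.309.

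Wisp2, a short CCN protein found in smooth muscle and stromal cells, was measured at 163524422 to 163524481 on chromosome 2. It read −0.09, −0.95 and −1.22. The mean, −0.76 ± 0.59 (95% interval −1.32 to −0.19), missed the threshold (adjusted p = 0.079). With replicate 1 left out it was 2.13-fold lower (−1.09, adjusted p = 1.23e-08), and without replicate 2 or 3 its adjusted p was 0.311 or 0.332. Wisp2 thus split between the arrays as Cyr61 and Ctgf did.

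Wisp1 was the only CCN gene called with all 3 arrays. It encodes a secreted protein of fibroblasts and osteoblasts and was measured at 66752744 to 66752803 on chromosome 15. Its ratios were 1.71, 0.73 and 0.96, above 0 on every array and highest on array 1. It rose 2.20-fold (mean 1.13 ± 0.51, 95% interval 0.63 to 1.64, limma adjusted p = 0.0199). Its call held without replicate 1 (0.85, adjusted p = 1.06e-06) and was lost without replicate 2 (1.34, adjusted p = 0.0569) or replicate 3 (1.22, adjusted p = 0.112).

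Nov, a CCN protein of the vessel wall and nervous system, was measured at 54582732 to 54582791 on chromosome 15. It read 0.0029, −0.02 and 0.06, with a mean of 0.02 ± 0.04 (95% interval −0.21 to 0.24, adjusted p = 0.934). The interval leaves room for a change of up to about that size in either direction. The family's remaining gene, Wisp3 (Ccn6), is not analysed here. Of the 5 CCN genes, 1 was thus called higher and none lower by limma with 3 arrays, against 8.68% and 11.4% of all genes tested. Their median log2 ratio was −0.76, against −0.02 over all genes tested. At an unadjusted p, Cyr61 (0.0151), Ctgf (0.00894) and Wisp2 (0.0179) were under 0.05, a threshold for which no share over all genes is given. With replicate 1 left out, 1 CCN gene was called higher and 3 lower, where 21.2% of all genes tested were called higher and 21.1% lower.

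Ankrd1 encodes an ankyrin repeat protein of the nucleus and sarcomere that is best known from stretched cardiac muscle, and its probe lies at 36177463 to 36177522 on chromosome 19. It read −0.37, −1.91 and −2.01. Every array was below 0 and array 1 was the closest to it. Ankrd1 fell 2.70-fold (mean −1.43 ± 0.92, 95% interval −2.27 to −0.60, limma adjusted p = 0.0417). Without replicate 1 it was 3.89-fold lower (−1.96, adjusted p = 2.71e-14), and its call was lost without replicate 2 (−1.19, adjusted p = 0.205) or replicate 3 (−1.14, adjusted p = 0.216). It was lost as well with scaling between arrays (adjusted p = 0.0543), median centring (0.0775) and no filter on dim probes (0.0939). Its 250 promoter bases, shown above, held GGAATG at 2 places.

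Amotl2 encodes a scaffold of tight junctions that binds YAP and holds it in the cytoplasm, and it is itself switched on by YAP. Its probe lies at 102590845 to 102590904 on chromosome 9. It read 0.02, −1.33 and −1.08, so that array 1 showed no lower level and the other arrays did. The mean of −0.80 ± 0.72 (95% interval −1.47 to −0.13) missed the threshold (adjusted p = 0.103), and on arrays 2 and 3 alone Amotl2 was 2.31-fold lower (−1.21, adjusted p = 1.50e-09). Without replicate 2 or 3 its adjusted p was 0.392 or 0.38.

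Yap1 itself rose slightly. It was measured at 7933061 to 7933120 on chromosome 9 and read 0.43, 0.32 and 0.43, the members' smallest spread beside that of Nov. The rise was 1.31-fold (mean 0.39 ± 0.06, 95% interval 0.16 to 0.62, limma adjusted p = 0.0422). Its call held without replicate 1 (0.37, adjusted p = 0.0113) and was lost without replicate 2 (0.43, adjusted p = 0.198) or replicate 3 (0.38, adjusted p = 0.244). It was also lost under 6 other ways of processing, with an adjusted p from 0.0507 (a filter on both channels) to 0.11 (median centring). Over all genes tested, 28.1% had a larger mean ratio in size.

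The probe named Tead1, at 112690667 to 112690726 on chromosome 7, was detected above background on 0 knockout arrays and on 1 wild-type array, so the ratios plotted for it are not read as a change and no fold is given. RefSeq lists the array name 2610024B07Rik as a synonym of Tead1, and 2 probes under that name exceeded background in each channel of every array. The brighter read 0.30, 0.27 and 0.58 (mean 0.38, limma adjusted p = 0.0662) and the other 0.13, −0.13 and 0.11 (mean 0.04, adjusted p = 0.853). Both probes missed the threshold with all 3 arrays. Without replicate 1 the brighter probe passed (0.42, limma adjusted p = 0.00542), and without replicate 2 or 3 its adjusted p was 0.216 or 0.337.

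The intensities of the separate channels also differed between the arrays. They are normalised log2 intensities of 1 probe, set against the same probe only. Ctgf read 15.95, 16.83 and 16.75 in the wild-type channel and 15.63, 14.37 and 14.64 in the knockout channel. On array 1 the wild-type level was thus 0.83 below the mean of arrays 2 and 3, and the knockout level 1.13 above it. Ankrd1 read 13.48, 14.56 and 14.67 in the wild type and 13.11, 12.65 and 12.67 in the knockout. Its wild-type level on array 1 was 1.14 below the other arrays and its knockout level 0.45 above. Amotl2 had the same order, with the wild type 0.86 below and the knockout 0.36 above. For Cyr61 the knockout level was 0.95 above the other arrays and the wild-type level 0.36 below. For Wisp2 the knockout was 0.91 above and the wild type 0.09 below. Wild-type and knockout intensities were in this way closer together on array 1 for each of these 5 genes. For Wisp1 they were farther apart, with the knockout 0.55 above and the wild type 0.31 below the other arrays. Nov, with a ratio near 0, read higher on array 1 in both channels, by 0.39 in the knockout and 0.41 in the wild type. A shift of 1 channel thus cannot be told apart from a shift of the probe's intensity shared by both.

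**Figure D2:**
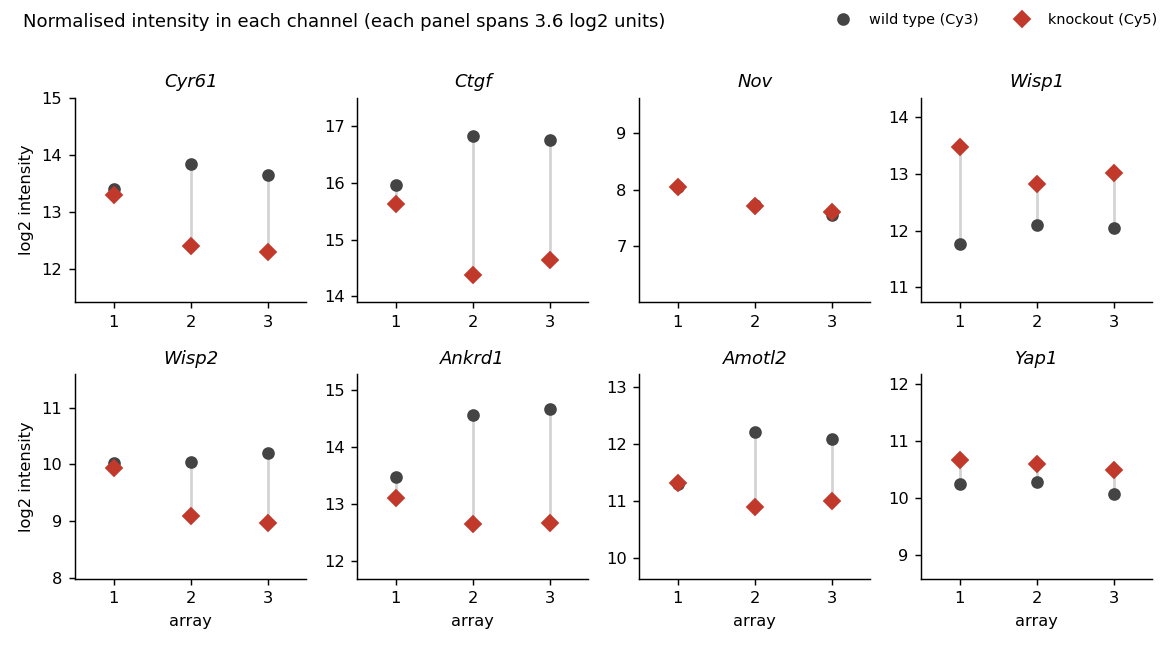
Normalised log2 intensity of the wild type (circles) and knockout (diamonds) for the 8 members tested, on each of 3 arrays; every panel spans the same height. For Ctgf and Ankrd1 the wild type reads lower and the knockout higher on array 1 than on arrays 2 and 3, and for Nov and Yap1 the channels keep their distance.

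These differences of array 1 were large among the genes on the array. The ratio on array 1 exceeded the mean of arrays 2 and 3 by 1.96 for Ctgf, 1.59 for Ankrd1, 1.31 for Cyr61, 1.23 for Amotl2, 1.00 for Wisp2 and 0.87 for Wisp1. A difference of greater size in either direction was found for 0.446% of the genes tested for Ctgf, 1.09% for Ankrd1, 2.19% for Cyr61, 2.77% for Amotl2, 5.13% for Wisp2 and 7.90% for Wisp1. The median size over all genes was 0.26. In 6 of the 8 members tested, array 1 was over 0.5 above the other arrays, which 8.67% of all genes tested were. For Nov and Yap1 the difference was −0.02 and 0.06. Tagln, a smooth muscle actin-binding gene taken from the SRF list once its values were known, was higher on array 1 as well. It read 0.63, −1.21 and −1.80 and did not pass with all 3 arrays (limma adjusted p = 0.294). Other listed genes went the opposite way on array 1: Filip1l of the SRF list read −0.54, 0.43 and 0.29, and Gadd45a of the YAP target set read −0.85, 0.94 and 0.86. The medians of the SRF list were −0.32, −0.40 and −0.39 on the 3 arrays. In 7 of its 16 genes, Tagln among them, array 1 was nonetheless over 0.5 above the mean of arrays 2 and 3.

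**Figure D3:**
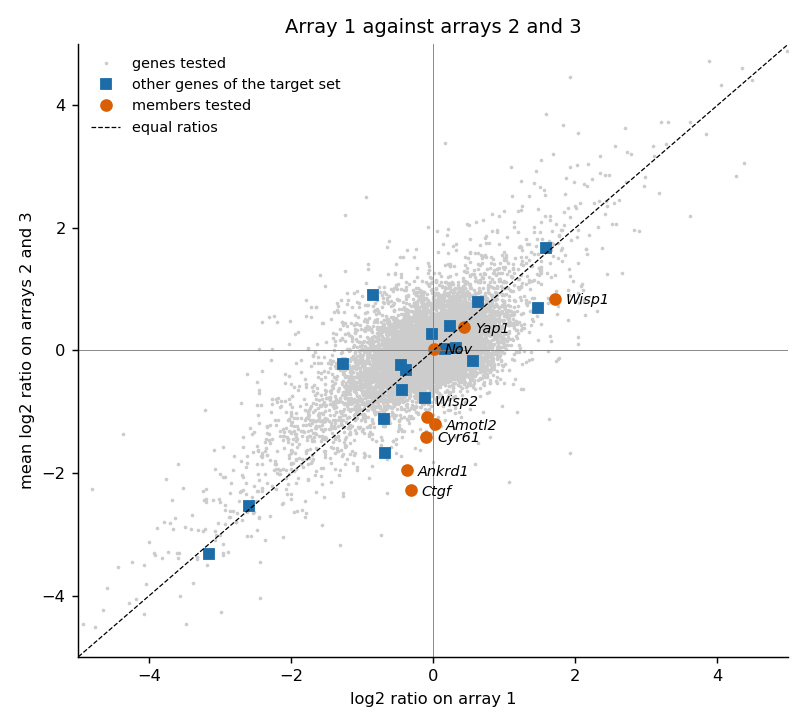
Log2 ratio on array 1 (horizontal) against the mean ratio on arrays 2 and 3 (vertical) for the genes tested (grey), the other genes of a published YAP and TAZ target set (squares) and the members tested (labelled circles); 8 genes lie outside the axes. Ctgf, Ankrd1, Cyr61, Amotl2 and Wisp2 lie below the line of equal ratios, and Igfbp3 and Tgfb2, the 2 squares at the lower left, lie near it.

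The published YAP and TAZ target set holds 22 genes, all tested, of which Cyr61, Ctgf, Ankrd1 and Amotl2 are members here. Of the other 18, 3 rose and 5 fell, with a median log2 ratio of −0.12. For this list and those below, the shares over all genes tested were 8.68% called higher and 11.4% lower. The falls were led by Igfbp3, a binding protein of insulin-like growth factors (−3.27 ± 0.36, 9.64-fold lower, limma adjusted p = 0.000412), and Tgfb2, a TGF-beta ligand (−2.56 ± 0.04, 5.90-fold lower). Crim1, a transmembrane BMP antagonist, fell by 1.35 on the log2 scale, and Foxf2, a forkhead factor of mesenchyme, rose 3.13-fold (1.64 ± 0.16). Igfbp3 read −3.17, −2.98 and −3.67 and Tgfb2 read −2.60, −2.56 and −2.52, so that array 1 gave these genes a ratio close to the other arrays. Crim1 read −0.68, −1.85 and −1.51, with array 1 the closest to 0, as for Cyr61, Ctgf and Ankrd1. Without replicate 1, 5 of the 18 were called higher and 7 lower, where 21.2% of all genes tested were called higher and 21.1% lower. The call of Crim1 needed replicates 2 and 3 (adjusted p = 0.0976 and 0.131 without them). In the 15 genes of the whole set with a promoter window, 6 windows held GGAATG or CATTCC, against 12.6% of all genes' first windows. They were those of the members Cyr61, Ankrd1 and Amotl2, shown above, and of Axl, Crim1 and Ptpn14. In the list of YAP, TAZ, TEAD and VGLL factors, 6 of 8 windows held these letters. Lists that are not of YAP targets held them too. They were found in 6 of 20 windows of Hippo regulators, 4 of 13 of the SRF and MRTF list and 2 of 8 of CCN receptors. In the TGF-beta list they were in 0 of 7.

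Among YAP's partners, Wwtr1, the gene of TAZ, fell by 0.62 on the log2 scale (−0.62 ± 0.33, limma adjusted p = 0.0426), the opposite direction to Yap1. It read −0.98, −0.55 and −0.33, and its call was lost without replicate 2 (adjusted p = 0.183) or replicate 3 (adjusted p = 0.113). It was the only called gene among the 7 other tested genes for YAP, TAZ, TEAD and VGLL factors. Tead2 read −0.41 (adjusted p = 0.0616), Tead3 0.17 (0.28) and Tead4 −0.06 (0.834).

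Of 24 Hippo kinases and upstream regulators, 3 rose and 8 fell, with a median of −0.30. Amot, the X-linked paralog of Amotl2 and likewise a YAP-binding junction scaffold, rose 2.85-fold (1.51 ± 0.22, limma adjusted p = 0.00169). It read 1.26, 1.64 and 1.64, whereas Amotl2 read 0.02, −1.33 and −1.08. Map4k4, a kinase that can phosphorylate LATS, rose 1.90-fold (0.92 ± 0.06). Wwc1, also known as KIBRA and an activator of LATS, fell by 1.51 (± 0.34) on the log2 scale. Lats2, which phosphorylates YAP and is itself a gene of the target set, fell by 0.98 (± 0.29). The core kinase gene Stk3 read −0.57 and the adaptor Sav1 −0.55, and both were called lower, while Lats1 read 0.09 (adjusted p = 0.622) and Stk4 −0.20 (adjusted p = 0.291). Calls were lost without replicate 2 for Lats2 (adjusted p = 0.0714) and without replicate 3 for Lats2 and Map4k4 (0.0916 and 0.0601). Sav1 lost its call in either case (0.209 and 0.118), as did Stk3 (0.15 and 0.14).

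**Figure D4:**
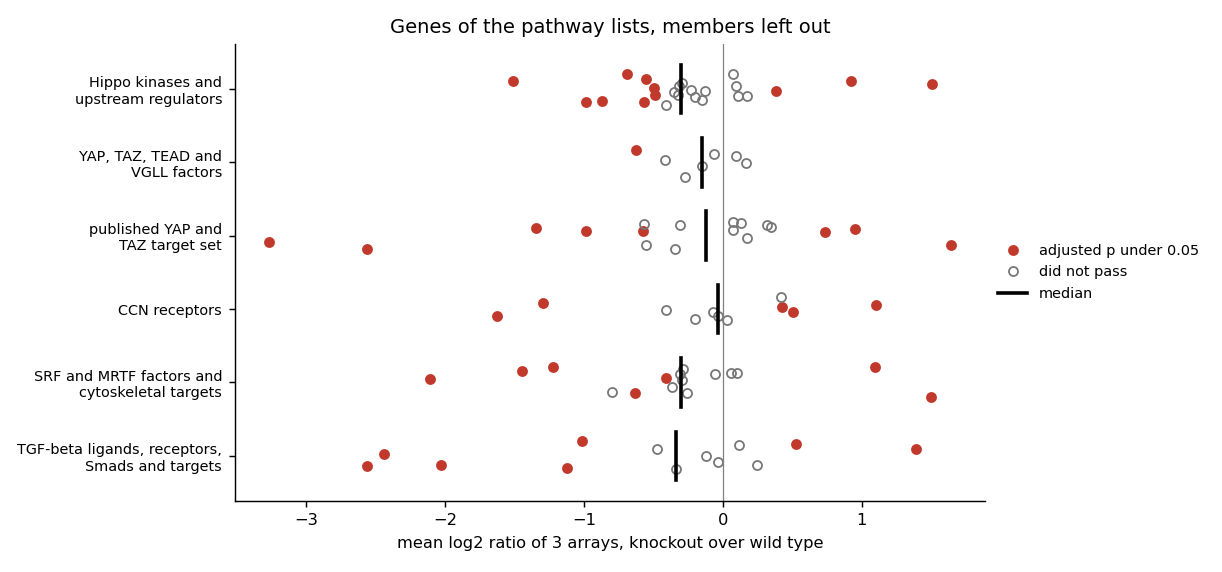
Mean log2 ratio over 3 arrays of the genes in 6 pathway lists, without the members (points; filled where the limma adjusted p was under 0.05), with the median of each list as a bar. Called genes lie on both sides of 0 in every list but that of YAP, TAZ, TEAD and VGLL factors, where the only called gene, Wwtr1, lies below 0.

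Genes of receptors for CCN proteins moved in both directions. Of 11 tested, 3 rose and 2 fell, with a median of −0.04. Sdc4, a heparan sulphate proteoglycan of focal adhesions, rose 2.15-fold (1.10 ± 0.12, limma adjusted p = 0.00259), and Lrp6, a co-receptor of WNT ligands, rose 1.42-fold. Itga6, an integrin subunit that binds laminin and Cyr61, fell by 1.62 (± 0.50) on the log2 scale, and Itgb3, of the vitronectin receptor, fell by 1.29 (± 0.85). Itgav, the partner of Itgb3, read −0.07 (adjusted p = 0.849). Without replicate 1 Itgb3 read −0.80, and its adjusted p was 0.106 without replicate 2 and 0.141 without replicate 3; Lrp6 likewise did not pass (0.132 and 0.166). Itga6 lost it without replicate 3 (0.0716).

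Serum response factor and its MRTF cofactors share the actin-dependent control of several YAP readouts. Of 16 genes for these factors and their cytoskeletal targets, 2 rose and 5 fell, with a median of −0.30. The myosin light chain gene Myl9 fell by 2.11 (± 0.56) on the log2 scale (limma adjusted p = 0.00397), calponin Cnn1 by 1.45 (± 0.40) and vinculin Vcl by 1.22 (± 0.47). Zyx, the LIM protein zyxin of focal adhesions, rose 2.82-fold (1.50 ± 0.20). Srf itself read −0.26 (adjusted p = 0.114). Without replicate 1, 3 were called higher and 9 lower, where 21.2% of all genes tested were called higher and 21.1% lower. Cnn1 and Vcl lost their calls without replicate 2 (adjusted p = 0.0533 and 0.0778) or replicate 3 (0.0625 and 0.11), and by the log ratio of the scanner software Cnn1 was −2.06.

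TGF-beta signalling is a known inducer of Ctgf. Of 13 genes for TGF-beta ligands, receptors, Smads and targets, 2 rose and 5 fell, with a median of −0.34. Tgfb2, given above, was followed by the target gene Tgfbi (−2.44 ± 1.00) and the ligand Tgfb3 (−2.03 ± 0.52), which also fell (limma adjusted p = 0.0122 and 0.00355). Ltbp2, a protein related to the latent TGF-beta binding proteins, rose 2.62-fold (1.39 ± 0.34). Tgfbi read −3.60, −1.84 and −1.88, so that here array 1 lay below the others. Smad7 fell by 1.01 on the log2 scale and read −0.41, −1.59 and −1.04. Without replicate 3, Tgfbi (0.0636) and Ltbp2 (0.0593) lost their calls, and without replicate 2 or 3 Smad7 did (0.151 and 0.186).

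Markers of other cell types shifted in the same comparison, and their part in the members' ratios was not tested. Of 9 mesothelial markers tested, 7 fell (limma), and Muc16 was above background on no array. Their summed intensity ranged from 6904 to 7369 in the knockout and from 72616 to 94813 in the wild type, with log2 ratios of −3.78, −3.30 and −3.35 on the 3 arrays. Of 10 fibroblast markers 7 rose and 1 fell, and their summed log2 ratios were 0.04, −0.05 and 0.37. Of 8 smooth muscle and pericyte markers tested 2 rose and 2 fell, with summed log2 ratios of 0.05, −0.21 and −0.17. Of 9 striated muscle markers, Myh6, Myl2, Ryr2, Myog and Ckm were above background on no array. Limma called 0 of the 4 tested (1 at an unadjusted p under 0.05). With replicate 1 left out it called 3 markers, where 42.3% of all genes tested were called. The summed log2 ratio of that list was 0.29, −1.01 and −1.22. The median difference between array 1 and the mean of arrays 2 and 3 over its 9 markers was 0.03. That median includes the 5 undetected markers, so it does not describe the detected ones. The summed ratio was higher on array 1 than on arrays 2 and 3. So were the ratios of Actc1 (1.63 on array 1, a mean of −1.12 on arrays 2 and 3) and Acta1 (1.18 and −1.01). Tnnt2 and Nppa, also tested, are not given here. Of 7 macrophage markers, 4 were tested and 2 fell, and Adgre1 and Itgam were above background on no array.

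The genes whose ratios lay closest to those of the members with the highest mean (Wisp1) and the lowest (Ctgf, which was not called) were found by Euclidean distance over the 3 arrays among 13442 other genes. For Wisp1 they were Fhl2, a LIM domain gene of the SRF list (1.72, 0.68 and 0.88, distance 0.10), and Mycn, a MYC family factor (1.73, 0.73 and 0.85, distance 0.12). For Ctgf they were Hbegf, a ligand of the EGF receptor (−0.66, −2.23 and −2.41, distance 0.51), and Macc1 (−0.90, −2.40 and −1.76, distance 0.68). With 3 arrays this is a description only.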

How the data were processed

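Total RNA had been amplified, labelled and hybridised to 2-colour 60-mer arrays. The deposited files held mean and median pixel intensities and local background for 45018 spots per array, the software's processed intensity and its log10 ratio, per the file headers. The submitters' processing notes name Agilent Feature Extraction 9.5.3.1. The deposited value table held the same log10 ratio (largest difference 0, column medians 0). Here normexp (offset 50) corrected the background, and loess within arrays normalised the log2 ratios. The 1639 control spots had weight 0, outlier-flagged spots were left out and none was saturated. Tests were run on the 25080 probes that 1 channel or both detected above background on 2 or more arrays. Mean ratios were tested against 0 with limma 3.58.1 (R 4.3.3, lmFit and eBayes, Benjamini-Hochberg over tested probes). Dim probes have ratios drawn towards 0 by the offset. Channel values come after Aquantile normalisation. A gene is its brightest tested probe, named through RefSeq accession, symbol or synonym (GRCm38, names only). The 253 probes against the gene's strand were left out. Probe coordinates are mm8, per the file headers. The pipeline was tested on simulated data. The members, the 7 pathway lists and the 6 marker lists were chosen with earlier results of these data known. Named genes were the members, Pim1, up to 4 called genes of each list by size of change, and the 2 genes nearest to the members with the highest and the lowest mean ratio; others named were chosen after their values were seen. The number of arrays limits the precision.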

Additional observations from a re-analysis of the deposited data

How the results depend on the processing

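Each array sets a knockout sample against a wild-type sample, so testing the ratios against 0 already uses that pairing. The labels give 1 group of arrays. The directions of all 7 tested members with a mean beyond 0.1 were the same under the 17 alternatives, while their sizes and calls moved. Nov never passed (limma adjusted p from 0.799 to 1). The cause of these shifts was not tested. Of the members, 1 was higher (Yap1 lost, log2 ratio and adjusted p in brackets) with no background subtraction (0.39, 0.0509), a normexp offset of 0 (0.40, 0.0865), the software's log ratio (0.43, 0.107), median centring (0.51, 0.11), a filter on both channels (0.39, 0.0507) and an intensity trend with robust variances (0.39, 0.0703). Ctgf joined Ankrd1, making 2 lower, with no background subtraction (−1.62, 0.039), an offset of 0 (−1.62, 0.0322), median pixels (−1.62, 0.0468), a filter on both channels (−1.63, 0.0436) and the intensity trend (−1.63, 0.04). Ankrd1 was lost, leaving 0 lower, with median centring (−1.19, 0.0775), scaling between arrays (−1.51, 0.0543) and no filter (−1.43, 0.0939). With array weights 5 members were lower, as Cyr61 (−1.26, 0.0033), Ctgf (−2.04, 0.00201), Wisp2 (−0.99, 0.00497) and Amotl2 (−1.05, 0.00588) passed, and 4417 genes were called. At an adjusted p under 0.01 and in a test against a log2 ratio of 0.5, 0 members were called higher and 0 lower: Wisp1 (1.13), Ankrd1 (−1.43) and Yap1 (0.39) missed. The first called 960 genes in all, with 6 higher and 9 lower in the lists without members, and the second 672, with 5 and 9. Median centring left 12 lower in the lists, raised the median of all genes from −0.02 to 0.08, and put 55.6% of called genes higher against 43.1%.

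Leaving out each replicate gave from 617 to 5570 called genes, from 0 to 2 members higher and from 0 to 5 lower, and in the lists from 4 to 17 higher and from 6 to 37 lower. Without replicate 1, 5570 genes were called and 5 members were lower. Without replicate 2 or 3, 710 and 617 genes were called and 0 members passed in either direction. The log2 ratios ranged from −1.41 to −0.74 for Cyr61, from −2.28 to −1.21 for Ctgf, from −1.09 to −0.52 for Wisp2, from −1.96 to −1.14 for Ankrd1, from −1.21 to −0.53 for Amotl2, from 0.85 to 1.34 for Wisp1 and from 0.37 to 0.43 for Yap1. Of 20 genes named from the lists, 20, 13 and 9 kept their calls without replicates 1, 2 and 3.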
